A study of Homo sapiens with 12 samples.

Results

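The 9 genes described here lie together on chromosome 12, at 12q13-q14, around CDK4 and GLI1, in a region known to be amplified in the Rh30 line of alveolar rhabdomyosarcoma. They were chosen by name, as CDK4, GLI1, TSPAN31, CYP27B1, METTL1, TSFM, AVIL, CTDSP2 and OS9, and every gene probe on the array that carries one of these names was taken. That gave 14 of the 41000 gene probes, for 9 of 30238 gene names. The study compared 3 cultures: parental Rh30 cells (WT), which carry the PAX3-FKHR fusion; a clone of Rh30 with a non-targeting control shRNA (CON); and a clone with an shRNA that stably knocks down PAX3-FKHR (KD1). All cultures were Rh30 cells grown for 24 h before RNA extraction, the clones with 1 μg/mL puromycin and WT without it. By the paper's account the stable knockdown was incomplete, so that KD1 still expresses part of the fusion. CON and KD1 are each 1 clone, so the knockdown and the differences between clones cannot be told apart in KD1 vs CON. Viral transduction and puromycin also differ in each comparison with WT. Each culture gave 2 RNA extracts, the biological replicates, and the 6 extracts were hybridised in 3 comparisons on 12 two-color arrays, so that each extract was measured in 4 channels. Labels call the replicates biological and say no more, so that the p-values measure the spread between these extracts. Copy number was not measured.

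Gene amplification raises the number of copies of a stretch of chromosome, and the genes within it can be transcribed from all of those copies. CDK4 encodes a kinase that binds D cyclins and phosphorylates the retinoblastoma protein, which releases E2F factors and lets cells enter S phase. GLI1 encodes the zinc finger transcription factor at the end of the Hedgehog pathway and was first isolated as an amplified gene in glioma. The other members have unrelated functions. TSPAN31 encodes a tetraspanin first described as a sarcoma amplified sequence, CYP27B1 the mitochondrial enzyme that makes the active form of vitamin D, METTL1 a methyltransferase of tRNA, TSFM a mitochondrial translation elongation factor, AVIL the actin-binding protein advillin, CTDSP2 a small phosphatase and OS9 a lectin that sends misfolded glycoproteins from the endoplasmic reticulum to degradation.

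On build NCBI36, the probes run from the GLI1 probe at chr12:56152238-56152297 to a CTDSP2 probe at chr12:56500320-56500379, a span of 348 kb. GLI1 stands apart, 276 kb before the CDK4 probe at chr12:56428530-56428589. The other members lie between 29.4 kb before the CDK4 probe, where the first OS9 probe is, and 71.8 kb after it. The TSPAN31 probe at chr12:56427453-56427512, on the plus strand, is only 1.08 kb from the CDK4 probe on the minus strand, and the CYP27B1 probe at chr12:56442843-56442902 is 14.3 kb away. The gene bodies of TSPAN31 and CDK4 overlap in the RefSeq table of GRCh38.p14, and so do those of TSFM and AVIL. The probes are 60-base oligonucleotides of 1 strand. OS9, METTL1 and CTDSP2 have 2 probes each and AVIL has 3. Each gene is given below by its brightest probe, and the others are named where they differ. RefSeq promoter sequences, from 250 bases before to 50 after the gene start, were at hand for 6 of the 9 genes. Those of CDK4, TSPAN31 and OS9 are shown because TSPAN31 and CDK4 share a stretch of the genome and OS9 has one of the largest differences between replicates. They are on GRCh38.p14, with 3 sets of letters in capitals on either strand: CACGTG, the palindromic E-box; GGGCGG, the GC box; and ATTA, the core of homeodomain sites. No 2 of these matches overlap.
CDK4, chr12:57752261-57752560, minus strand: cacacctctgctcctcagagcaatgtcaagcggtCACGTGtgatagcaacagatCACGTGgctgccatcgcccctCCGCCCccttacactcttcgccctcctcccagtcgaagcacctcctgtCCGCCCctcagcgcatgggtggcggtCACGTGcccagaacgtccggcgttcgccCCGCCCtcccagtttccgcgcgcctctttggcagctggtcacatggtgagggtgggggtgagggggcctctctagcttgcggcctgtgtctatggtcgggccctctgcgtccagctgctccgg
TSPAN31, chr12:57744789-57745088, plus strand: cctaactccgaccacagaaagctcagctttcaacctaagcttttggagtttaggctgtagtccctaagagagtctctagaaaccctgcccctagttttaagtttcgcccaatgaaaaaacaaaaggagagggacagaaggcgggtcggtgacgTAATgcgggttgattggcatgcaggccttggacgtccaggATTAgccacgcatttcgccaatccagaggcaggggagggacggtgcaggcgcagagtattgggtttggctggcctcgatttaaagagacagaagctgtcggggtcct
OS9, chr12:57693882-57694181, plus strand: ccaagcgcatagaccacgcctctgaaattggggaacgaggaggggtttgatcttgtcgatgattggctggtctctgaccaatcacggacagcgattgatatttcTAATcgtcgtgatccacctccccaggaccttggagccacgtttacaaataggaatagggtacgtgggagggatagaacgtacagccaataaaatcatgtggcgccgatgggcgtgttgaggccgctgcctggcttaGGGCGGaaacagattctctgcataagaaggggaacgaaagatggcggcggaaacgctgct
The CDK4 window held 3 matches to CACGTG, which 7.43% of 27305 promoters of the same length contain, and 3 to GGGCGG, which 44.6% contain. None of the other 5 windows held CACGTG. The TSPAN31 window held 2 matches to ATTA and the OS9 window 1, letters found in 51.0% of promoters, and the OS9 window also held 1 match to GGGCGG. A match to such short letters is a description of the sequence and not a binding site.

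The signals of all 9 genes were bright in every culture. For each extract, the percentile rank of a probe's processed signal among the 41000 gene probes was taken in each channel and averaged over the 4 channels. A rank depends on how well a probe hybridises as well as on the amount of RNA, and so the ranks of different genes are not compared with one another. All 14 probes were well above background in all 4 channels of all 6 extracts, and no spot was saturated. CDK4 ranked at 99.97 in both WT extracts, at 99.96 in both CON extracts and at 99.95 and 99.89 in KD1. OS9 ranked from 99.80 to 99.99, TSFM from 99.63 to 99.92 and CTDSP2 from 99.58 to 99.77. These 4 genes were in the top 1% of probes in all 6 extracts, where 0.754% of all gene names were. METTL1 ranked from 98.2 to 99.1, AVIL from 95.4 to 97.4 and GLI1 from 93.4 to 97.0. The widest ranges were those of TSPAN31, from 89.3 to 93.0, and CYP27B1, from 87.6 to 94.6. Only in KD1 did a member leave the top 10%, TSPAN31 in replicate 1 and CYP27B1 in replicate 2. The 7 others were in the top 10% in all 6 extracts, against 9.49% of all gene names. The other AVIL probes were dimmer, with ranks from 66.9 to 78.4 and from 45.4 to 57.5.

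**Figure D1:**
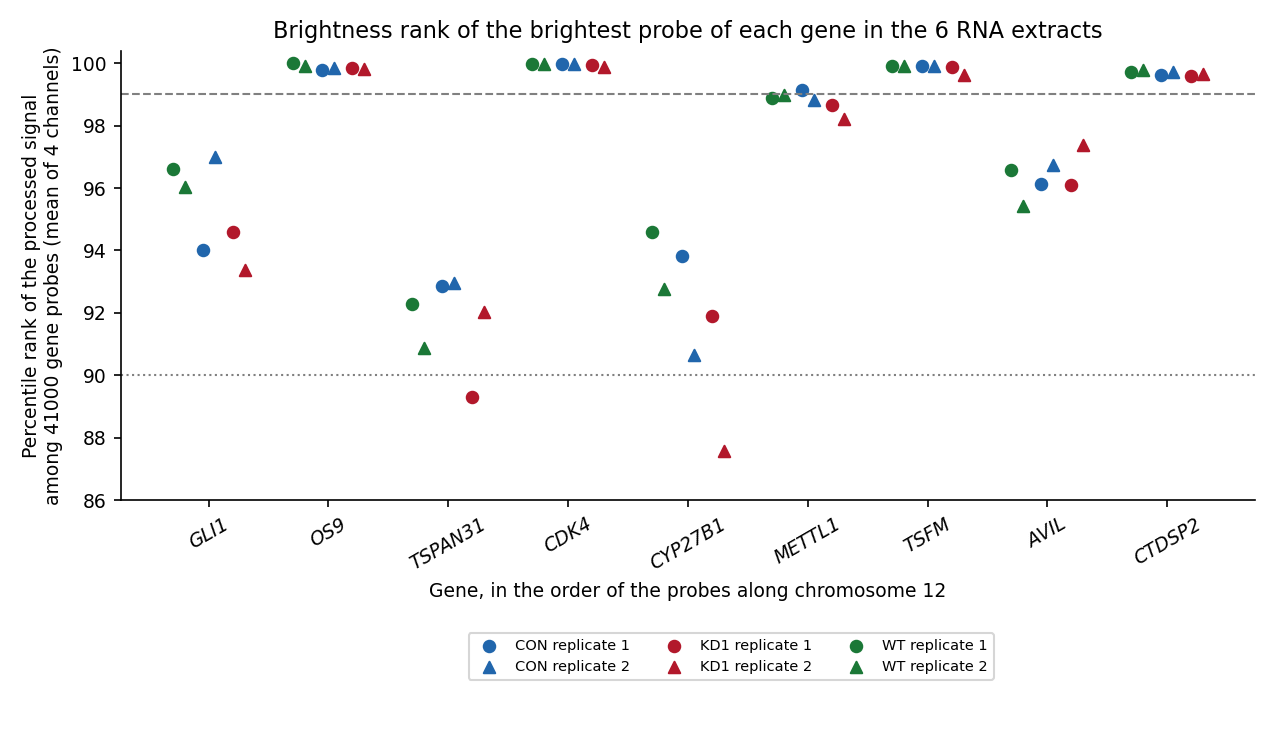
Percentile rank of the processed signal of each gene's brightest probe (y axis, percent, mean of 4 channels) in the 6 RNA extracts, with color for the culture and circles and triangles for replicates 1 and 2. The dashed and dotted lines mark the top 1% and the top 10% of probes. CDK4, OS9, TSFM and CTDSP2 sit above the dashed line in all 6 extracts, and the only points below the dotted line are KD1 extracts of TSPAN31 and CYP27B1.

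To ask whether these genes differ with PAX3-FKHR, log2 ratios of KD1 to each of the other cultures were taken. WT vs CON served as the comparison of the cultures without the knockdown. None of the 9 genes passed the threshold of an adjusted p under 0.05 (limma, Benjamini-Hochberg over all probes tested) in any of the 3 comparisons. The threshold was passed by 0.729% of 21949 probes in KD1 vs CON, by 0.43% of 24893 relative to WT (KD1 vs WT) and by 0.488% of 26616 between WT and CON. At an unadjusted p under 0.05 there were 2 of the 9 genes in KD1 vs CON, CYP27B1 and METTL1, the same 2 relative to WT, and 0 between WT and CON, where the share of all probes tested was 17%, 16.9% and 17.1%. The ratios of the members nonetheless leaned one way in both KD1 comparisons. In KD1 vs CON, 8 of 9 fitted log2 ratios were below 0, against 52.2% of all probes tested, with a median of -0.51 against -0.02, and 7 of 9 with no replicate block, where OS9 was at 0.013. In KD1 vs WT, 8 of 9 were below 0, against 49.2%, with a median of -0.48 against 0.01, and 7 of 9 when the arrays were scaled by their medians, since CDK4 then had a value above 0. The same 8 genes, all but AVIL, were below 0 in both comparisons, where 33.1% of probes were. The KD1 comparisons share the KD1 extracts and are not independent of each other. In WT vs CON only 3 of 9 were below 0, against 53.3%, but 5 with another background correction and loess (normexp) and 6 with median scaling, so that no direction can be given there. Both replicates were below 0 in 6 of 9 genes in KD1 vs CON, against 37.2% of probes, and in 7 of 9 relative to WT, against 27.6%. The ratio was below 0 on all 8 KD1 arrays for CYP27B1, METTL1 and TSFM, against 8.36% of probes, and not for the other members. Arrays of a dye-swap pair fell on either side of 0 for CDK4 in both comparisons, and for CTDSP2 and OS9 relative to WT. They also did for AVIL relative to CON, at -0.055 and 0.12 in replicate 1.

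**Figure D2:**
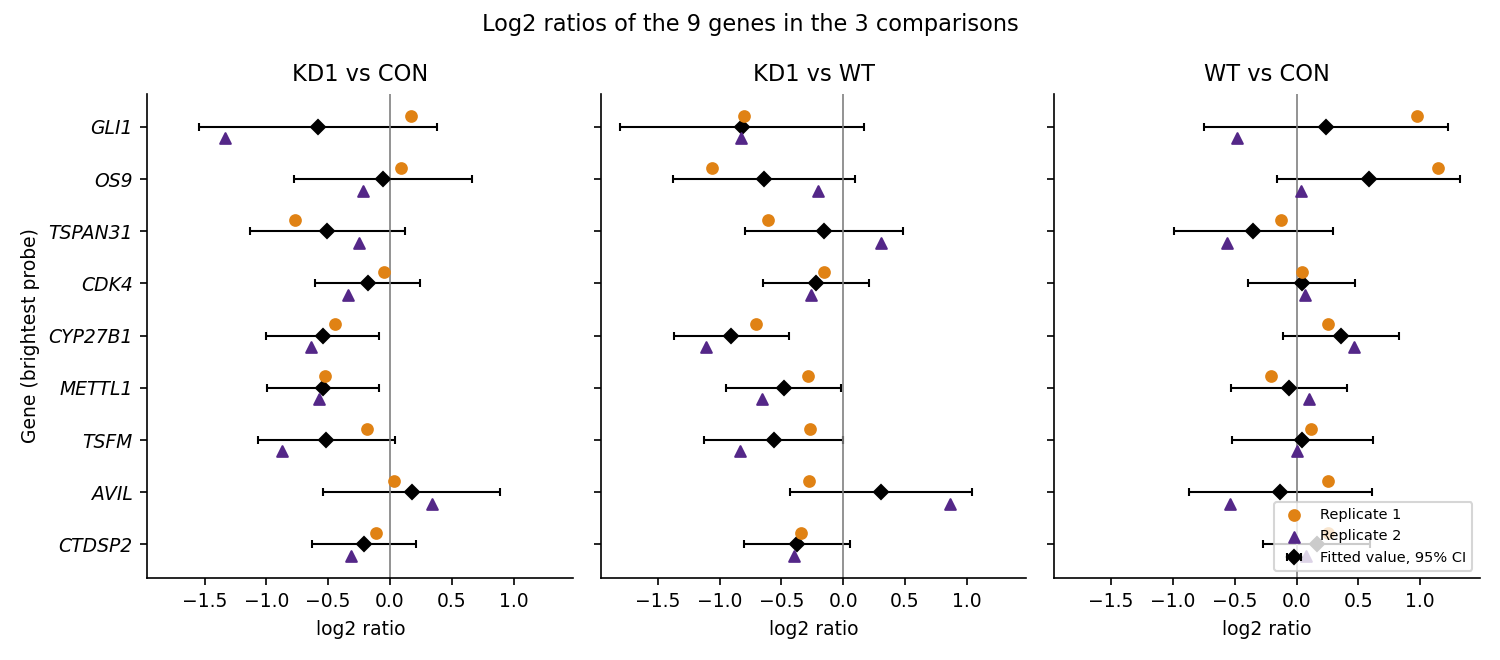
Log2 ratios (x axis) of the 9 genes in the 3 comparisons, one per panel. Circles and triangles are replicates 1 and 2, each the mean of a dye-swap pair, and diamonds with bars are the fitted values with 95% confidence intervals. In both KD1 comparisons 8 of the 9 diamonds lie to the left of 0, and the interval excludes 0 only for CYP27B1 and METTL1, before adjustment for the number of probes.

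CYP27B1 had the lowest fitted value of the members in KD1 vs WT and the smallest adjusted p in both KD1 comparisons. Its processed signal, a geometric mean over the 4 channels of an extract with no scaling between arrays, was 15251 and 9270 in the WT extracts of replicates 1 and 2, 12218 and 6381 in CON, and 8576 and 4628 in KD1. Within each replicate the order was WT, CON, KD1, but the signals of replicate 2 were lower than those of replicate 1 in each culture, so that KD1 and CON overlapped. The log2 ratio in KD1 vs WT was -0.71 in replicate 1 and -1.11 in replicate 2, a mean of -0.91 ± 0.29 (SD, n = 2), with a fitted value of -0.91 (SE 0.19, 95% confidence interval -1.37 to -0.44, adjusted p = 0.133 by limma). In KD1 vs CON it was -0.45 and -0.64, with a fitted value of -0.54 (SE 0.18, limma adjusted p = 0.232). The ratio was below 0 on all 8 KD1 arrays, as it was for METTL1 and TSFM, against 8.36% of probes. In WT vs CON CYP27B1 had values of 0.25 and 0.47.

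METTL1 had the closest replicates in KD1 vs CON. Its log2 ratios there were -0.52 and -0.58, with a fitted value of -0.54 (SE 0.18, 95% confidence interval -0.996 to -0.086, limma adjusted p = 0.233). The replicates differed by 0.06, where the median difference of all probes tested was 0.21. In KD1 vs WT the values were -0.28 and -0.66, and in WT vs CON they lay on either side of 0, at -0.21 and 0.10. The processed signals were 75440 and 71690 in WT, 88350 and 62368 in CON and 60742 and 44774 in KD1, and both KD1 extracts lay below the other 4. Its second probe gave fitted values of -0.53 relative to CON and -0.39 relative to WT.

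TSFM followed the same direction with a larger value in replicate 2. The log2 ratios were -0.19 and -0.87 in KD1 vs CON, and relative to WT they were -0.26 and -0.84. WT vs CON gave 0.12 and -0.00015. The fitted values were -0.52 (SE 0.22, limma adjusted p = 0.324) and -0.56 (SE 0.23, limma adjusted p = 0.298) in the KD1 comparisons. The processed signal was 145472 in KD1 replicate 2 and between 204732 and 251239 in the other 5 extracts, so that this 1 extract stands below the rest.

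CDK4 had some of the smallest ratios of the members. Its processed signals were 297207 and 293799 in WT, 280184 and 273993 in CON, and 257846 and 235065 in KD1, and both KD1 extracts lay below the other 4. The log2 ratio was -0.05 and -0.34 in KD1 vs CON, and -0.15 and -0.26 relative to WT. The fitted values were -0.18 (SE 0.17, 95% confidence interval -0.60 to 0.24, limma adjusted p = 0.664) in KD1 vs CON and -0.22 (SE 0.17, 95% confidence interval -0.65 to 0.21, limma adjusted p = 0.563) in KD1 vs WT. The arrays of a dye-swap pair lay further apart than the replicates did, with values from -0.71 to 0.22 over the 4 arrays of KD1 vs CON. In WT vs CON the replicates gave 0.04 and 0.07.

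CTDSP2 resembled CDK4, with log2 ratios of -0.11 and -0.31 relative to CON, -0.35 and -0.40 relative to WT, and 0.25 and 0.08 for WT vs CON. The -0.40 is the mean of a dye-swap pair at -1.07 and 0.27, and the other probe gave -0.62 and 0.47 on the same arrays. Its fitted value in KD1 vs WT was -0.37 (SE 0.17, limma adjusted p = 0.345) with the brightest probe and -0.16 with the other, and in WT vs CON the probes fell on either side of 0, at 0.16 and -0.08.

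GLI1 had ratios that depended on the replicate. Its processed signals were 26110 and 19002 in WT, 12696 and 24281 in CON and 14195 and 10866 in KD1, so that the control clone was low in replicate 1 and high in replicate 2. In KD1 vs WT the log2 ratio was -0.81 and -0.83, and 4 of 4 arrays were below 0. In KD1 vs CON it was 0.17 in replicate 1 and -1.34 in replicate 2, a difference of 1.503 that is above that of 98.9% of the probes tested. WT vs CON likewise gave 0.97 and -0.48. The fitted values were -0.58 (SE 0.39) in KD1 vs CON, -0.82 (SE 0.40) relative to WT, and 0.24 (SE 0.40) for WT vs CON, with limma adjusted p of 0.518, 0.363 and 0.809. The 2 KD1 extracts and the CON extract of replicate 1 were close to each other, and KD1 vs CON therefore overlapped between groups while KD1 vs WT did not.

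OS9 was set apart by 1 WT extract. Its processed signal was 382348 in WT replicate 1 and between 189200 and 231880 in the other 5 extracts. The log2 ratio was 1.14 in replicate 1 and 0.04 in replicate 2 of WT vs CON, and KD1 vs WT gave -1.06 and -0.20, while KD1 vs CON gave 0.09 and -0.22. The -0.20 is the mean of a dye-swap pair at -0.58 and 0.17. None of the fitted values, 0.58 (SE 0.30, limma adjusted p = 0.384) in WT vs CON, -0.64 (SE 0.30, limma adjusted p = 0.347) in KD1 vs WT and -0.06 (SE 0.29, limma adjusted p = 0.958) in KD1 vs CON, passed the threshold. A second probe of OS9 showed the same extract, with values of 1.04 and -0.07 in WT vs CON.

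TSPAN31 and AVIL differed most between the replicates of KD1 vs WT. TSPAN31 gave -0.61 and 0.30 there, -0.77 and -0.25 relative to CON, and -0.12 and -0.57 for WT vs CON. Its processed signal was lowest in KD1 replicate 1, at 5700, and in WT replicate 2, at 6833, and between 8595 and 10214 in the other extracts. The brightest AVIL probe gave -0.28 and 0.86 in KD1 vs WT, 0.03 and 0.34 relative to CON, and 0.26 and -0.54 for WT vs CON. The other AVIL probes disagreed with it in KD1 vs CON, with -0.68 and -0.52 for one and -0.77 and -0.54 for the other, and fitted values from -0.71 to 0.17 over the 3 probes. The direction for AVIL therefore depends on the probe. Both disagreeing probes lie next to the TSFM probe and were dimmer than the brightest one.

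**Figure D3:**
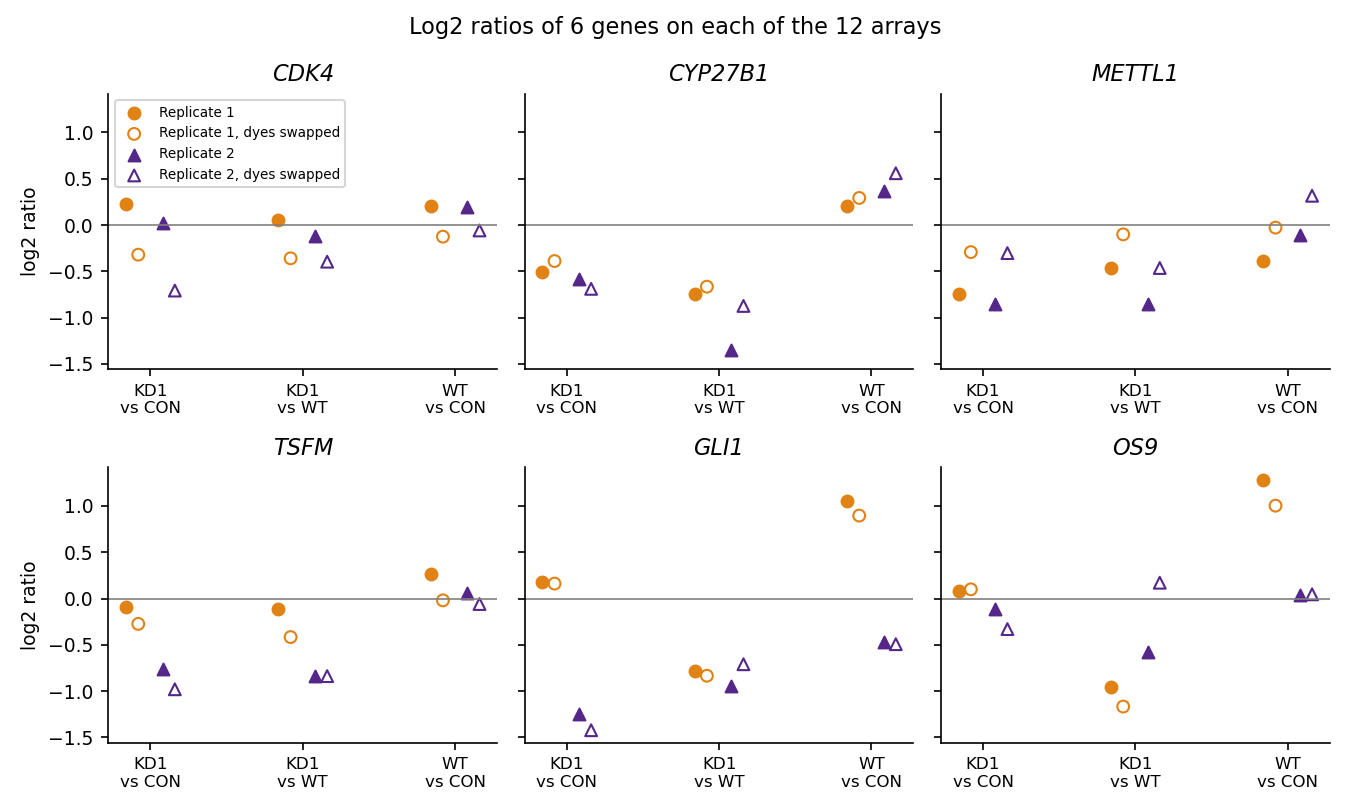
Log2 ratios (y axis) of 6 of the genes on each of the 12 arrays, with replicate 1 in circles and replicate 2 in triangles, and open symbols for the array with swapped dyes. CYP27B1, METTL1 and TSFM are below 0 on all 8 KD1 arrays, GLI1 separates by replicate in KD1 vs CON and WT vs CON but not in KD1 vs WT, OS9 separates by replicate in WT vs CON, and the arrays with swapped dyes are the lower ones for CDK4.

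The differences between replicates were present in separate hybridisations of the same RNA. WT and CON were hybridised together on 1 slide and each was also hybridised with KD1 on the other 2 slides, so that WT vs CON can also be taken as KD1 vs CON minus KD1 vs WT, a calculation added after the data were seen. For GLI1 this gave 0.97 and -0.51 from the KD1 slides in replicates 1 and 2, beside 0.97 and -0.48 from the direct arrays. For OS9 it gave 1.16 and -0.02, beside 1.14 and 0.04. Over the 9 genes and 2 replicates the direct and indirect values differed by 0.03 at the median and by at most 0.15, which was in CDK4, replicate 2. The median over all probes measured on all 12 arrays was 0.06. Between replicates, WT vs CON differed by 1.45 for GLI1 and by 1.105 for OS9.

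**Figure D4:**
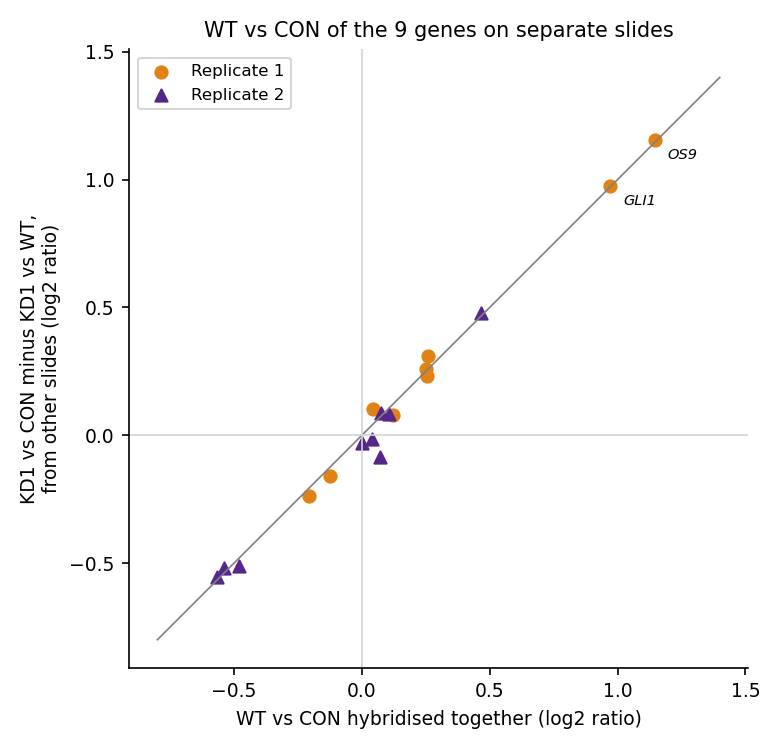
WT vs CON log2 ratio of the 9 genes from the arrays that held both (x axis) against KD1 vs CON minus KD1 vs WT from the other slides (y axis), with circles for replicate 1 and triangles for replicate 2. The line marks equal values, and all 18 points lie within 0.15 of it.

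Neighbouring genes were taken from the same window of the chromosome. Of 41 other named genes with a probe within 1000000 bases of the span, 32 were tested in KD1 vs CON, 34 relative to WT and 38 for WT vs CON. In each, 0 passed the threshold, with 9, 6 and 3 at an unadjusted p under 0.05 (limma), against about 17% of all probes in each. The median fitted log2 ratios were -0.08, -0.06 and -0.07, beside -0.02, 0.01 and -0.03 for all probes tested. Over the whole window the neighbours thus had medians near 0, but those inside the span of the members had lower ones. Of the 14 tested there, 8 were below 0 in each KD1 comparison, a share near the 52.2% and 49.2% of all probes tested. The medians of the 14 were -0.24 relative to CON and -0.27 relative to WT, and 7 and 4 had an unadjusted p under 0.05 (limma). The same 8 of the 14 were below 0 in both KD1 comparisons, which share the KD1 extracts. Of the members 8 of 9 were, and of all probes tested 33.1%. These 8 neighbours are all those from PIP4K2C, 146 kb before the CDK4 probe, to MARCHF9, 10.8 kb after it. This stretch was chosen after its values were seen. In WT vs CON 4 of these 8 were below 0. The neighbours spread more widely than the members, from -1.33 to 1.30 in KD1 vs CON, where the members ran from -0.58 to 0.17. Before GLI1 the next genes are INHBE and INHBC, which encode inhibin beta subunits, and INHBE had values of 0.41 and 4.41 in KD1 vs WT, far apart between replicates, while INHBC had 0.20 and -0.07. After CTDSP2 the next probes carry the names CR602022, with -0.48 and -0.60 in KD1 vs CON, and XRCC6BP1 (now ATP23), with -0.18 and -0.80. Inside the span of the members, 3 genes were picked after their values were seen. DTX3, an E3 ubiquitin ligase that acts in Notch signaling, gave -1.13 and -1.11 relative to CON and -1.65 and -0.82 relative to WT, with fitted values of -1.12 and -1.23 (limma adjusted p = 0.133 and 0.138). B4GALNT1, a ganglioside synthase, had -1.35 and -1.31 in KD1 vs CON, but -2.01 and -0.34 relative to WT (limma adjusted p = 0.222 and 0.273). DDIT3, a stress-induced transcription factor known as CHOP, gave 0.68 and 1.89 relative to CON and 0.88 and 2.49 relative to WT (limma adjusted p = 0.192 and 0.152). Genes with values above and below 0 thus lay between GLI1 and CDK4. Of the 41 neighbours, 46.3% had a median rank in the top 10%, beside 11.4% of all gene names.

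**Figure D5:**
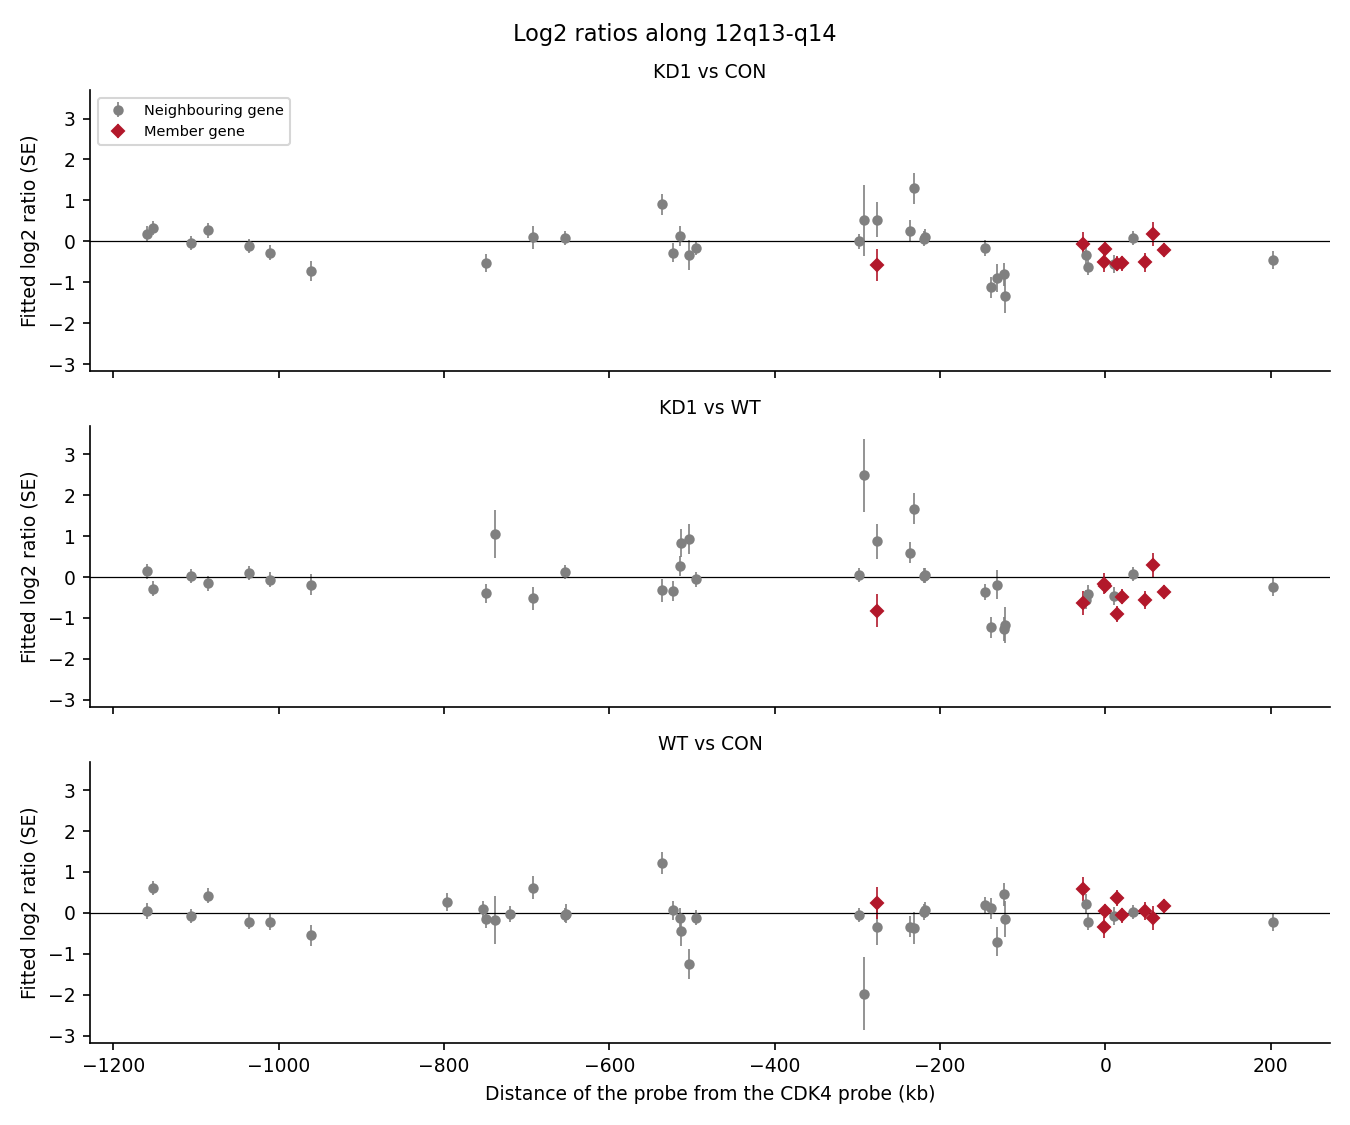
Fitted log2 ratios with their SE (y axis) of the members (red diamonds) and the neighbouring genes tested (grey circles) against the distance of the probe from the CDK4 probe in kb (x axis), with 1 panel per comparison. The members lie between -0.91 and 0.58 over the 3 panels, and neighbours with values above 1 and below -1 lie between GLI1 and CDK4 in both KD1 panels.

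A separate region of the same arm that is amplified in other sarcomas, with MDM2, HMGA2, YEATS4, FRS2, CPM, RAP1B, NUP107 and CCT2, had 0 of its tested genes past the threshold in any comparison. In KD1 vs WT all 7 tested genes were below 0, against 49.2% of all probes tested, with a median of -0.37. Both replicates were below 0 in 4 of them. In WT vs CON all 7 were above 0, where 53.3% of probes were below 0, with a median of 0.13. Both replicates were above 0 in 4. The medians were -0.088 and -0.025 without replicate 2, and -0.50 and 0.39 without replicate 1. Both comparisons share the WT extracts and are not independent of each other. Relative to CON, 2 of the 6 tested in KD1 were below 0, with a median of 0.015. MDM2, the ubiquitin ligase of p53, gave 0.27 and -0.28 relative to CON and -0.27 and -0.63 relative to WT. The median rank of these 8 genes was 77.5, from 19.8 for CPM to 99.4 for CCT2.

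The partners, inhibitors and substrates of CDK4 were measured as a list of 18 genes, of which 17 passed the filter in each comparison and 0 passed the threshold. Their median fitted log2 ratios were -0.0046 in KD1 vs CON, -0.043 relative to WT and 0.11 for WT vs CON. CCND1, which encodes the CDK4 partner cyclin D1, had the lowest value in KD1 vs CON, with -1.30 and -1.28, but 0.01 and -1.28 relative to WT. CDK6, the kinase closest to CDK4, gave 0.44 and 0.39 relative to CON and 0.30 and -0.32 relative to WT. The inhibitor gene CDKN2A had a median rank of 98.0. Of the 16 genes of the Hedgehog pathway other than GLI1, 15 were on the array and 12 were tested in the KD1 comparisons, with 0 past the threshold and 6 at an unadjusted p under 0.05 in each, where about 17% of all probes were. Their medians were -0.29 relative to CON and -0.54 relative to WT. The first was -0.02 without replicate 2 and -0.44 without replicate 1, and the second -0.71 and -0.34. Above 0 were 4 of the 12 relative to CON, with SMO highest at 0.47, and 3 relative to WT, with SUFU highest at 0.29. HHIP and PTCH1, which GLI1 is known to activate, were picked after their values were seen. Their fitted values in KD1 vs WT were -1.83 and -1.12 (limma adjusted p = 0.155 and 0.250), beside -0.82 for GLI1. Relative to CON, HHIP had the lowest fitted value of the 12 tested, -1.48, beside -0.58 for GLI1, whose replicates gave 0.17 and -1.34. KIF7, of the same list, did not pass the filter in the KD1 comparisons. With no filter its fitted values were lower still, at -2.72 relative to CON and -3.38 relative to WT (limma adjusted p = 0.0165 and 0.0109). In WT vs CON, PTCH1 had 1.36 and -0.05 in replicates 1 and 2, and GLI1 0.97 and -0.48. Whether HHIP or PTCH1 followed GLI1 was not tested.

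The genes whose ratios were most like those of CDK4 over the 12 arrays, among 21870 probes measured on all of them, were BPNT2 (Pearson r = 0.95), CDCA2 (0.93) and SEC23A (0.93). For GLI1 they were FZD8 (0.99), SOX2 (0.98) and AGTPBP1 (0.97). None of these 6 genes is on chromosome 12. The 12 arrays hold only 6 extracts, and they entered singly, before dye-swap averaging. For CDK4 the array with swapped dyes was the lower one in every pair, so that these correlations mix dye and culture. Whether a shared dye effect accounts for them was not tested, and the values are a description. Among the members, the highest correlation was that of TSPAN31 with AVIL (0.82), followed by GLI1 with OS9 (0.79), and the lowest was that of TSFM with AVIL (-0.66).

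By the selection criteria of the study, a mean change of at least 2-fold in both KD1 comparisons with the same direction on every array and a signal above the negative controls, 0 of the 9 genes were selected, against 1.38% of 21899 probes. CYP27B1 came nearest in KD1 vs WT, with a mean of -0.91, but had -0.54 in KD1 vs CON. The probes of the targeted fusion's own genes gave -0.39 and -0.46 for PAX3 and -0.26 and -0.58 for FOXO1 in KD1 vs CON. Relative to WT they gave -0.45 and -0.33 for PAX3 and -0.79 and -0.41 for FOXO1, with 0 past the threshold (lowest limma adjusted p = 0.300). Where these probes lie relative to the fusion point was not analysed here. The myogenic genes that mark Rh30 were present, with median ranks from 80.4 for MYOG to 98.7 for DES among MYOD1, MYOG, DES, CDH15, FGFR4 and CHRNA1. PAX3 and FOXO1 complete the list of 8 marker genes, and the lowest median rank of the list was that of PAX3, at 62.6. Of the 8 marker genes, MYOG was the only one past the threshold, in WT vs CON, with -1.96 and -1.49 and a fitted value of -1.73 (limma adjusted p = 0.0480), a call that ended under 5 of 7 alternatives, at adjusted p of 0.161 with normexp and loess, 0.0890 with median scaling, 0.0825 with no filter, 0.0537 with the filter on signals well above background and 0.196 with no replicate block, while the log2 ratio stayed between -1.73 and -1.56 under all 7.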

How the data were processed

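Total RNA was labeled (500 ng per channel) and hybridised on 12 two-color Agilent arrays of 45015 features, with 43376 gene spots and 153 negative controls, as 3 comparisons of 2 replicates with a dye-swap pair each. Agilent Feature Extraction (v. 10.5.1.1) was used by the authors to read the spots, and they deposited linear intensity values per spot: mean, background-subtracted and processed signals, the last lowess-normalized within the array, and a log10 ratio of red over green. The deposited series table holds the same ratio on the log2 scale.

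Spots flagged as outliers (95 to 188 per array) were left out, spots of a probe were averaged, and log2 ratios of processed signals were turned to 1 direction and averaged over each dye-swap pair. Tests took in probes for which, on all arrays of a comparison, red or green background-subtracted signal exceeded 99% of the negative control spots. The 3 ratios of a replicate were reduced by least squares to 1 value per extract, and cultures were compared with limma 3.58.1 in R 4.3.3, with the replicate as a block and 2 residual degrees of freedom. P-values were adjusted by Benjamini-Hochberg over all probes tested, with a threshold of 0.05, and the fit was tested on simulated data. The 12 arrays lie on 3 slides: 1 with all WT vs CON arrays and 1 with the KD1 arrays of each replicate, so slide and replicate cannot be told apart in the direct KD1 ratios. The number of arrays limits the precision. Genes are given by their brightest probe. Of 19229 RefSeq accessions on the array, 18609 matched a gene table of GRCh38.p14, used for names and gene order. The named genes are the 9 members, PAX3 and FOXO1, the 2 genes next to the members on each side, the 3 genes most like CDK4 and GLI1, and those of a list that passed the threshold; other genes of the lists are examples chosen after their values were seen. The members and lists were chosen with earlier results of these data known. Alternatives were normexp with offset 50 and loess, median scaling, the series table, other filters, no replicate block, direct ratios only, the mean over probes and leaving out a replicate.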

Additional observations from a re-analysis of the deposited data

How the results depend on the processing

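None of the 9 genes passed the threshold in any comparison under any of the 8 alternatives that gave a test. Of the 27 values of a gene in a comparison, 5 changed sign under an alternative that kept both replicates and 8 when a replicate was left out. With median scaling CDK4 was 0.030 in KD1 vs WT and -0.20 for WT vs CON, TSFM -0.17 and CTDSP2 -0.034 in WT vs CON. With normexp and loess, CDK4 was -0.022 and TSFM -0.0054 in WT vs CON. With no replicate block OS9 was 0.013 in KD1 vs CON. Without a replicate there is no residual spread and so no test. Without replicate 2, GLI1 and OS9 were 0.17 and 0.088 in KD1 vs CON, and AVIL was -0.26 in KD1 vs WT, with 0.27 for WT vs CON. Without replicate 1, TSPAN31 was 0.31 in KD1 vs WT, and GLI1, METTL1 and TSFM were -0.49, 0.097 and -0.011 in WT vs CON. The number of probes called depended on the processing. In the order KD1 vs CON, KD1 vs WT, then WT vs CON, it was 160, 107 and 130, but 0, 1 and 0 with normexp and loess (3530, 4233 and 4745 at an unadjusted p under 0.05 by limma), 69, 31 and 28 with median scaling, 387, 364 and 932 with direct ratios only, and 82 in WT vs CON with no filter. With no replicate block it was 201, 126 and 114. Extracts with the same replicate number shared a slide but did not all deviate together (correlations of -0.07 for KD1 and WT, 0.54 for KD1 and CON, and -0.02 for WT and CON, over 21870 probes). The median of the neighbours in KD1 vs CON, -0.08, was 0.061 with no filter, -0.024 with the filter on signals well above background, -0.16 within 500000 bases, and from -0.090 to -0.042 without a replicate. The median of the CDK4 partners in WT vs CON, 0.11, was 0.16 with no replicate block and from -0.013 to 0.017 without a replicate. With direct ratios only, 2 neighbours passed in KD1 vs CON (DTX3 and B4GALNT1), 2 in WT vs CON (LRP1 and INHBE), 1 partner of CDK4 in KD1 vs CON (CCND1) and 1 Hedgehog gene in KD1 vs WT (HHIP). KIF7, of the Hedgehog list, was not tested in the KD1 comparisons, and 1 gene, KIF7, passed in both with no filter and in KD1 vs WT with the filter on signals well above background. The cause of these changes was not tested.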
